A study of Homo sapiens with 16 samples.

Results

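The 9 genes described here make and regulate HLA class I molecules, the complexes that show peptides from inside the cell on its surface. They were taken by symbol from the deposited count table: HLA-B, HLA-C, HLA-E, HLA-F, B2M, TAP1, TAP2, TAPBP and NLRC5. Each symbol was found once among the 58243 gene IDs of the table, and all 9 were among the 16647 genes with enough counts to be tested. Of other class I heavy chain genes, HLA-G is counted with the class I-like genes below, and the rest were not analysed here. The cells were U-251 MG, an established human glioblastoma line grown in high-glucose DMEM with 10% FBS. Treatment began 24 h after seeding and lasted 48 h, and the cells received the vehicle (DMSO), 0.06 µM simvastatin, 0.6 µM irinotecan, or the 2 drugs together at these doses, called the combination. Simvastatin is a statin, an inhibitor of cholesterol synthesis, and irinotecan is the prodrug of a topoisomerase I inhibitor that causes DNA breaks. Each of the 4 groups held 4 libraries of poly(A) RNA, and the series asks which genes and pathways the drugs affect alone and together. All libraries come from 1 cell line in culture.

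A class I molecule is a heavy chain, encoded by an HLA gene, bound to the small constant chain B2M and to a peptide. Peptides are cut by the proteasome, carried into the endoplasmic reticulum by the TAP1-TAP2 transporter, trimmed by aminopeptidases, and loaded onto the heavy chain with the help of tapasin, encoded by TAPBP. HLA-B and HLA-C are classical heavy chains that present peptides to CD8 T cells, HLA-E presents a narrow set of peptides to an inhibitory receptor on natural killer cells, and HLA-F is a non-classical heavy chain. NLRC5 is a transcriptional activator of class I genes and of their partners B2M and TAP1, and it acts through factors bound to an upstream promoter element. Interferons raise most of these genes, and cells of the nervous system are known for low class I levels at rest.

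Library totals were 24159673 to 32318888 counts, and mitochondrially encoded genes took 2.37% to 4.58% of them. Markers were checked against the cell line: VIM, NES, SOX2, CD44 and GFAP were among the abundant ones of the 11 glioma and astrocyte markers, whereas AQP4 and ALDH1L1 had only 24 and 28 counts over all 16 libraries. The summed level of these 11 markers is given in CPM, the count of a gene relative to the library total. The DMSO libraries had 7412 to 7645 CPM, the simvastatin libraries 7185 to 7295, the irinotecan libraries 5806 to 5953 and the combination libraries 5680 to 5839. The 15 leukocyte markers summed to between 1.41 and 3.11 CPM in every library, with 4 to 8 of them at any count, and CD3D, CD3E, CD2 and TYROBP had 0 counts in all 16. The 6 endothelial markers summed to 4.18 to 4.78, 4.15 to 4.82, 5.67 to 6.90 and 6.42 to 6.94 CPM in the same order of groups, with PECAM1 at 18 counts over all 16 libraries. The 6 epithelial markers, mostly the keratins KRT8 and KRT18, summed to 407 to 458, 366 to 398, 591 to 651 and 513 to 587 CPM, with EPCAM at 4 counts in all. The sums of the glioma, endothelial and epithelial lists thus moved with irinotecan. Those of the glioma and epithelial lists were also lower with simvastatin than with DMSO, without overlap. The most abundant markers weigh most in such sums, so a sum does not describe each marker of its list. Those were CD44 and VIM in the glioma list, at means of 2753 and 1743 CPM over all libraries. In the endothelial list it was KDR, at 4.16 CPM. The part of these sums in the results below was not tested.

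The stretches of promoter shown next are the 250 bases upstream of the RefSeq transcription start, on GRCh38.p14 and read 5′ to 3′ along the gene. They are shown because these genes are known to be driven by interferon-response and NF-kB elements close to their starts, and because the genes behind them did not all change alike. RefSeq promoters were matched for 7 of the 9 genes, with 2 starts for TAP1, and HLA-E and NLRC5 had none in the table used. Capitals mark matches, on either strand, to the interferon regulatory factor half-site AANNGAAA or to the NF-kB consensus.
HLA-B, chr6:31357180-31357429, minus strand: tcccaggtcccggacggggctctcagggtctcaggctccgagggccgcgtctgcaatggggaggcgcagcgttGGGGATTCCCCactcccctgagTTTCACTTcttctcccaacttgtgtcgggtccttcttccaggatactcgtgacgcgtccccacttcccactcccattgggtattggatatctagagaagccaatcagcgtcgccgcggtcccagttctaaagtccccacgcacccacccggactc
HLA-C, chr6:31272093-31272342, minus strand: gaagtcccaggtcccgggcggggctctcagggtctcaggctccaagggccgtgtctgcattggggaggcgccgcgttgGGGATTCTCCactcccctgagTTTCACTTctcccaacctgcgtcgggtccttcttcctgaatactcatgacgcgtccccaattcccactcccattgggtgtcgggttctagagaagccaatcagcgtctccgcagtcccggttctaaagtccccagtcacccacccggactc
HLA-F, chr6:29723184-29723433, plus strand: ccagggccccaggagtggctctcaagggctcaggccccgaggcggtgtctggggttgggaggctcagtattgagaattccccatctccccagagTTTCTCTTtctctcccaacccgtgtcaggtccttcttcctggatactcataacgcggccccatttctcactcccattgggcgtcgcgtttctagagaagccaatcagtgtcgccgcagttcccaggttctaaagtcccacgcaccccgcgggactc
B2M, chr15:44711267-44711516, plus strand: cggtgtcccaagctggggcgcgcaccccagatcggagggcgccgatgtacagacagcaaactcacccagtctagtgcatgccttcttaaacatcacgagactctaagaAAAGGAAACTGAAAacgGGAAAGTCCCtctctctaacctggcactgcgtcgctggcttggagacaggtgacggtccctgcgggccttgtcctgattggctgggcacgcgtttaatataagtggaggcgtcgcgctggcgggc
TAP1, chr6:32853705-32853954, minus strand: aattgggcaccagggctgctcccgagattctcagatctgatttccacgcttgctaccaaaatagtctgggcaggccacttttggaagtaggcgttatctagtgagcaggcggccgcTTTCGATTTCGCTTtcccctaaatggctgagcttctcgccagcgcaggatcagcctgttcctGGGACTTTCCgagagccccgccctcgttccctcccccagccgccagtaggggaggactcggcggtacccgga
TAP2, chr6:32838740-32838989, minus strand: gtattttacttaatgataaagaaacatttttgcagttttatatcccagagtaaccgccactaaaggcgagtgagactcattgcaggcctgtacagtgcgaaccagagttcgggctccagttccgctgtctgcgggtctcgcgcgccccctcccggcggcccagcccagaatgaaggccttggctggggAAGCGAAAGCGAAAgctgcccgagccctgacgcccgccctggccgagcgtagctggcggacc
TAPBP, chr6:33314079-33314328, minus strand: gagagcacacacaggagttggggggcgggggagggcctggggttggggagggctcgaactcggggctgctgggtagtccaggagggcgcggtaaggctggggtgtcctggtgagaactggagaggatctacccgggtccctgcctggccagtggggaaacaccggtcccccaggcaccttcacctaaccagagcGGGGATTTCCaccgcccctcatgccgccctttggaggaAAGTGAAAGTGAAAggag

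In the HLA-B window the NF-kB match began 177 bases before the start and the half-site 155 bases before it, and in the HLA-C window they began at 172 and 151 bases. The HLA-F window held a half-site from 156 bases, which is also a match to the longer interferon-response core, the half-site with GA directly before it, and no match to the NF-kB consensus. The B2M window held 2 overlapping copies of the longer core, from 144 and 138 bases before the start, and an NF-kB match from 125 bases. The upstream TAP1 window held 2 overlapping copies from 134 and 128 bases and an NF-kB match from 72 bases, and the TAPBP window held 2 from 20 and 14 bases and an NF-kB match from 56 bases. The TAP2 window held overlapping half-sites from 62 and 56 bases, 1 match to the longer core from 58 bases and no NF-kB match. The window of the other TAP1 start, chr6:32852762-32853011, is not shown and held no half-site and no NF-kB match, but a match to TTCNNNGAA from 189 bases. Over the 8 windows of the 7 genes, 7 held AANNGAAA, against 20.3% of 35116 RefSeq windows of the same length, and 5 held the longer core, against 3.02%. Every match to the longer core contains the shorter motif. The NF-kB consensus was in 5 of 8 windows, against 9.96%, CCAAT in 5 of 8, against 32%, TGACG in 4 of 8, against 21.2%, and TTCNNNGAA in 1 of 8, against 6.57%. Both strands were searched for each motif, the HLA windows are related to each other by descent, and a match describes the letters and not a bound factor.

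Per length, B2M was by far the most abundant of the 9 mRNAs and NLRC5 and HLA-F the least. Levels were divided by the total exon length of each gene in GENCODE 29 (GRCh38), which also gives the gene coordinates below, and the mean with DMSO was 204 CPM per kb for B2M, 37.2 for HLA-E, 36.0 for HLA-C, 25.4 for TAPBP, 17.2 for HLA-B, 4.59 for TAP1, 2.32 for TAP2, 0.860 for NLRC5 and 0.770 for HLA-F. The total exon length of B2M, 6079 bases, includes all annotated transcripts and is far longer than its main mRNA, so the value for B2M is too low. The lengths of the other genes also include all annotated transcripts, so the order of genes close in level depends on this choice of length. HLA-E and HLA-C did not differ beyond their spread, with 36.7 to 37.5 CPM per kb for HLA-E and 34.9 to 37.1 for HLA-C in the 4 DMSO libraries. NLRC5 and HLA-F overlapped too, with 0.737 to 0.956 and 0.646 to 1.04 CPM per kb, and the other neighbours in this order did not overlap. With irinotecan the order of the means changed at 1 place, where HLA-F (1.44) stood above NLRC5 (1.22), although their libraries overlapped. Overlaps changed at 2 further places. HLA-E, at 47.7 CPM per kb, no longer overlapped HLA-C, at 42.1, and HLA-B came to the range of TAPBP, with 24.5 ± 0.407 against 25.8 ± 1.26 CPM per kb (SD, n = 4) and overlapping libraries.

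**Figure D1:**
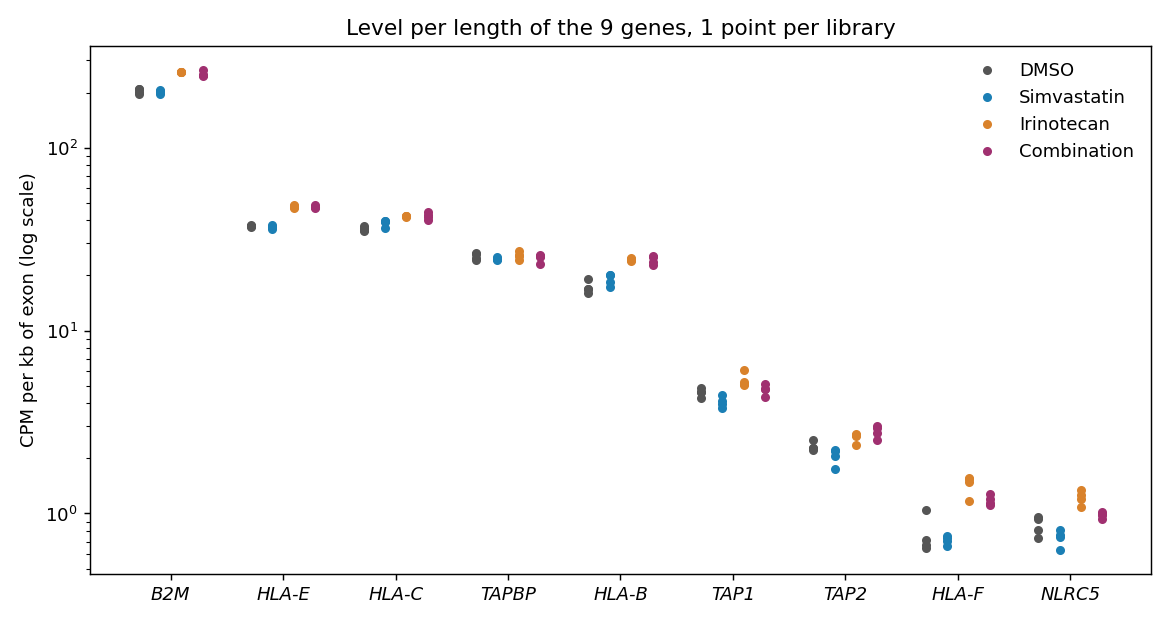
Level of each of the 9 genes in CPM per kb of exon, on a log scale, with 1 point per library and colours for the 4 groups. B2M sits near 204 CPM per kb with DMSO, 4 of the other genes lie between 17.2 and 37.2, and NLRC5 and HLA-F lie near 1 or below.

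Counts of HLA genes need care, since the genes share sequence and the cell line's own alleles differ from the reference. Of all 50-base words in the GENCODE 29 transcripts of each gene, the share also found in transcripts of other genes was 2.72% for HLA-B, 5.38% for HLA-C, 4.34% for HLA-E and 0.977% for HLA-F, and 0 for B2M and NLRC5. TAP2 shared 31.3% of its words, with 2 gene models, among them AL669918.1, which lies on the same strand, covers 32.3% of the TAP2 exons and had 0 counts in every library. How reads in the shared exons were counted is not given in the sources used here. The 0 therefore does not show that TAP2 kept them all, and the level of TAP2 may be too low. Whether counting used strand is not given in the sources used here, so reads of HLA-F and of HLA-F-AS1, which covers 12.3% of its exons on the opposite strand, cannot be told apart there, nor those of TAP1 and PSMB8-AS1, which covers 9.49%. HLA-F-AS1 was at 1.72 ± 0.455 CPM (SD, n = 4) with DMSO and 2.15 ± 0.439 with irinotecan, and PSMB8-AS1 at 1.33 ± 0.0599 and 1.80 ± 0.344. Their log2 fold changes with irinotecan were 0.34 ± 0.19 (SE) and 0.42 ± 0.19, and neither passed the test (edgeR adjusted p = 0.211 and 0.121). Pseudogenes on the opposite strand also cover 17.8% of the HLA-B exons (AL671883.2) and 16.1% of the HLA-F exons (AL645939.1). The first had at most 2 counts in any library and the second 0. These low counts do not show that HLA-B and HLA-F kept all reads there, so their levels may be too low.

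Irinotecan alone raised the class I genes. NLRC5, B2M, TAP1 and all 4 heavy chain genes were higher than with DMSO, by 1.17-fold to 1.88-fold, whereas TAP2 and TAPBP did not pass the test. In numbers, 7 of 9 genes were called higher at an adjusted p under 0.05 and 0 lower, where 12.4% of the 16647 genes tested were called higher, 11.7% lower and 24.1% in either direction. The median log2 fold change of the 9 was 0.34, against -0.00021 over all genes tested. In 7 of the 9, every irinotecan library lay above every DMSO library, as was so for 12.3% of all genes. RNA of whole cultures was measured, so more RNA per cell and a larger share of cells that carry it cannot be told apart.

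Of the heavy chains, HLA-B (ENSG00000234745, chr6:31269491-31357188, minus strand) was at 51.2, 51.2, 58.5 and 48.9 CPM in the 4 DMSO libraries and at 73.3, 75.2, 76.3 and 74.4 CPM in the 4 irinotecan libraries. All 4 irinotecan libraries lay well above the highest DMSO library, and the change was 1.43-fold (log2 fold change 0.51 ± 0.05 SE, edgeR adjusted p = 8.51e-09). HLA-E (ENSG00000204592, chr6:30489467-30494205, plus strand) was at 112, 111, 111 and 109 CPM with DMSO and at 142, 141, 145 and 139.9 CPM with irinotecan. The libraries of a group lay within a few CPM of each other, and the groups did not overlap (1.28-fold, log2 fold change 0.36 ± 0.03, adjusted p = 9.66e-10). HLA-C (ENSG00000204525, chr6:31268749-31272130, minus strand) moved less, from 92.9, 89.0, 91.2 and 87.6 CPM to 105, 106, 105 and 106 CPM. Here too the groups did not overlap, and the log2 fold change was 0.23 ± 0.04 (1.17-fold, adjusted p = 5.64e-05). HLA-F (ENSG00000204642, chr6:29722775-29738528, plus strand) had the largest fold change of the 9 and the lowest counts, 70 to 221 per library over all groups. It was at 3.09, 2.94, 4.54 and 2.81 CPM with DMSO and at 6.43, 6.67, 6.80 and 5.05 CPM with irinotecan. The third DMSO library was the high one and the fourth irinotecan library the low one, and the groups still did not overlap. The change was 1.88-fold (95% interval 1.56 to 2.26, adjusted p = 2.63e-06). The annotated span of HLA-B reaches into that of HLA-C, with 35 exon bases in common.

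B2M (ENSG00000166710, chr15:44711487-44718877, plus strand), the shared light chain, was at 1198, 1225, 1275 and 1274 CPM with DMSO and at 1575, 1570.2, 1567 and 1573 CPM with irinotecan. The irinotecan libraries were almost equal and all above the DMSO libraries, and B2M rose 1.26-fold (log2 fold change 0.34 ± 0.03, adjusted p = 2.2e-09). Summed over the 4 heavy chains, the DMSO libraries had 257 ± 7.16 CPM (SD, n = 4), the simvastatin libraries 268 ± 7.91, the irinotecan libraries 328 ± 3.32 and the combination libraries 327 ± 9.95. In a two-sided exact permutation test of 4 against 4 libraries, where 0.0286 is the smallest p possible, the sum was higher by 71.9 CPM with irinotecan than with DMSO (p = 0.0286, adjusted p = 0.0429 over 6 pairs of groups). B2M per unit of summed heavy chain, a ratio chosen after the values were seen, was 4.85 ± 0.207, 4.58 ± 0.0555, 4.78 ± 0.0582 and 4.70 ± 0.172 in the same order of groups. No pair of groups differed in it past the exact permutation test after adjustment (lowest adjusted p = 0.171).

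Of the loading machinery, TAP1 (ENSG00000168394, chr6:32845209-32853978, minus strand) was at 22.2, 22.1, 23.3 and 20.6 CPM with DMSO and at 25.2, 24.4, 29.3 and 24.3 CPM with irinotecan. The third irinotecan library stood above the rest, and the groups did not overlap (1.17-fold, log2 fold change 0.23 ± 0.07, edgeR adjusted p = 0.0101). Without that library the log2 fold change was 0.16 and the call was lost (adjusted p = 0.0879). TAP2 (ENSG00000204267, chr6:32821833-32838780, minus strand) was at 14.2, 14.5, 16.1 and 14.5 CPM with DMSO and at 16.9, 15.2, 17.4 and 17.2 CPM with irinotecan. The groups overlapped, and its log2 fold change of 0.17 ± 0.08 did not pass the test (adjusted p = 0.111). TAPBP (ENSG00000231925, chr6:33299694-33314387, minus strand) was at 132, 134, 126 and 122 CPM with DMSO and at 132, 138, 129 and 123 CPM with irinotecan, with the groups mixed. Its 95% interval was 0.958-fold to 1.08-fold (adjusted p = 0.757).

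NLRC5 (ENSG00000140853, chr16:56989485-57083531, plus strand), the activator, was at 11.8, 11.5, 10.1 and 9.13 CPM with DMSO and at 14.9, 13.5, 15.7 and 16.6 CPM with irinotecan. The groups did not overlap, and NLRC5 rose 1.42-fold (log2 fold change 0.51 ± 0.09, edgeR adjusted p = 3.36e-05). Its counts were 195 to 452 per library over all groups.

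**Figure D2:**
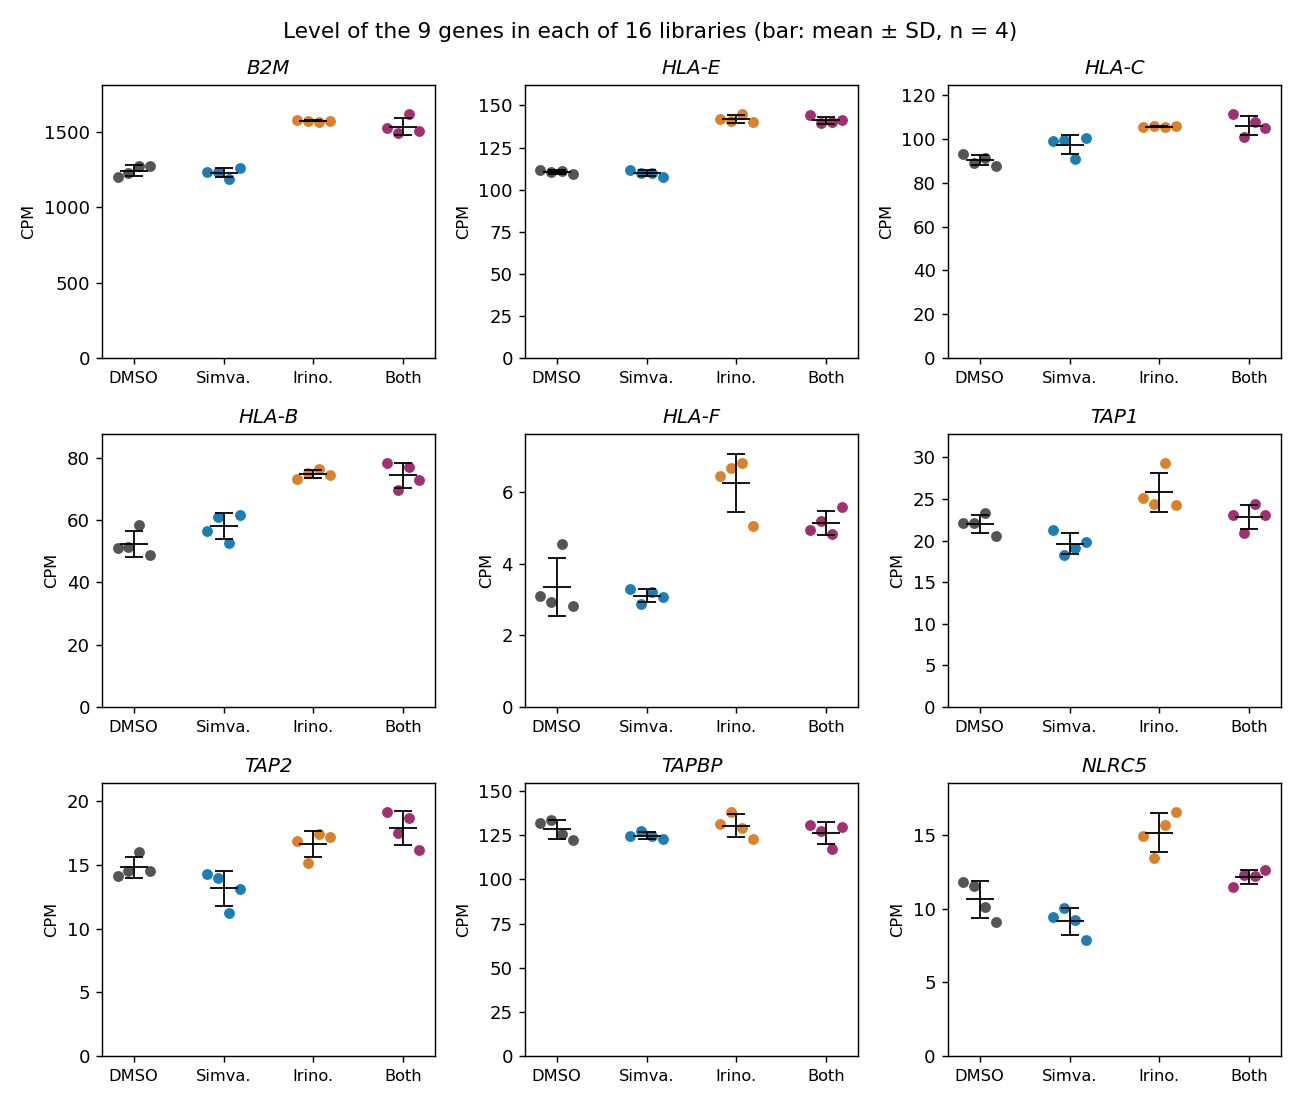
CPM of each of the 9 genes in the 16 libraries, in 4 groups (DMSO, simvastatin, irinotecan, both drugs), with 1 point per library and bars for the mean ± SD (n = 4). For B2M, HLA-E, HLA-C, HLA-B and HLA-F both groups with irinotecan lie above DMSO, TAPBP is level over all groups, and NLRC5 is lower with both drugs (12.2 CPM) than with irinotecan alone (15.2 CPM).

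Simvastatin alone changed none of the 9 genes past the test with edgeR or with DESeq2, where edgeR called 6.00% of all genes tested in either direction, 3.89% higher and 2.11% lower. At an unadjusted p under 0.05 there were 5 of the 9 genes by each of the tools, against 17.3% of the 16647 genes with edgeR and 7.63% of the 38369 genes that DESeq2 tested without the filter on low counts. With edgeR these were HLA-B and HLA-C, at the higher side of DMSO, and NLRC5, TAP1 and TAP2, at the lower side. HLA-B was at 56.4, 61.1, 52.8 and 61.7 CPM (log2 fold change 0.15 ± 0.05, edgeR adjusted p = 0.121), and HLA-C at 98.7, 99.3, 90.7 and 100.1 CPM (0.11 ± 0.04, adjusted p = 0.117). Both ranges overlapped those of DMSO, and the third simvastatin library was the low one for both genes. Without that library both were called (adjusted p = 0.0246 for each), at log2 fold changes of 0.19 and 0.14, and HLA-B was also called without the third DMSO library, at 0.20 (adjusted p = 0.0207). NLRC5 was at 9.42, 10.1, 9.25 and 7.86 CPM (log2 fold change -0.22 ± 0.09, adjusted p = 0.195), TAP1 at 21.3, 18.2, 19.2 and 19.8 CPM (-0.17 ± 0.07, adjusted p = 0.174), and TAP2 at 14.3, 14.0, 11.2 and 13.1 CPM (-0.17 ± 0.08, adjusted p = 0.234). Each of the 3 overlapped DMSO. For the rest the 95% intervals were 0.943-fold to 1.03-fold for B2M, 0.947-fold to 1.04-fold for HLA-E, 0.916-fold to 1.03-fold for TAPBP and 0.763-fold to 1.15-fold for HLA-F. The median log2 fold change of the 9 was -0.04, against -0.0073 over all genes, and the summed heavy chains differed from DMSO by 11.6 CPM (exact permutation p = 0.0857, adjusted p = 0.103).

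With the combination, B2M, TAP2 and the 4 heavy chain genes were higher than with DMSO, and NLRC5, TAP1 and TAPBP did not pass the test. Thus 6 of 9 genes were called higher and 0 lower, where 15.1% of all genes tested were called higher, 13.0% lower and 28.1% in either direction. The median log2 fold change was 0.27, against 0.00012 over all genes. In the same 6 genes no combination library overlapped a DMSO library, as was so in this direction for 14.7% of all genes. The DMSO libraries are shared with the comparison of irinotecan alone, so both sets of values rest on 1 set of controls. HLA-B was at 78.3, 69.5, 76.9 and 72.7 CPM, all above DMSO (1.42-fold, log2 fold change 0.51 ± 0.05, edgeR adjusted p = 1.16e-08). HLA-E was at 144, 139, 140.3 and 141 CPM, close to its level with irinotecan alone (1.28-fold, 0.35 ± 0.03, adjusted p = 1.28e-09). HLA-C was at 111, 101, 107 and 105 CPM (1.17-fold, 0.23 ± 0.04, adjusted p = 3.63e-05), and B2M at 1521, 1493, 1615 and 1506 CPM (1.23-fold, 0.30 ± 0.03, adjusted p = 1.62e-08). HLA-F was at 4.94, 5.19, 4.83 and 5.57 CPM, each above the high DMSO library at 4.54 (1.54-fold, 0.62 ± 0.13, adjusted p = 0.00063). The summed heavy chains were higher than with DMSO by 70.2 CPM (exact permutation p = 0.0286, adjusted p = 0.0429).

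Of the transporter subunits, TAP2 was at 19.2, 17.6, 18.7 and 16.2 CPM with the combination (log2 fold change against DMSO 0.27 ± 0.08, 1.21-fold, edgeR adjusted p = 0.00667). Its lowest library lay only just above the highest DMSO library, at 16.1 CPM. TAP1 was at 23.0, 20.9, 24.4 and 23.1 CPM and overlapped DMSO (0.055 ± 0.067, adjusted p = 0.593). TAPBP was at 131, 127, 117 and 129.6 CPM, with an interval of 0.925-fold to 1.04-fold (adjusted p = 0.687). NLRC5 was at 11.5, 12.3, 12.2 and 12.6 CPM, and its lowest library lay below the highest of DMSO (log2 fold change 0.19 ± 0.09, adjusted p = 0.102). It was called without the first DMSO library (0.25, adjusted p = 0.0496).

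Set directly against irinotecan alone, the combination passed the test in 1 of the 9 genes, NLRC5, where 5.94% of all genes tested were called in either direction, 4.45% higher and 1.50% lower. NLRC5 was 0.804-fold its irinotecan level (95% interval 0.713 to 0.907, log2 fold change -0.32 ± 0.09, edgeR adjusted p = 0.0216). All 4 combination libraries lay below the 4 irinotecan libraries, as was so in this direction for 5.06% of all genes. The call was lost without the third irinotecan library (adjusted p = 0.0699), the fourth irinotecan library (0.0765), the first combination library (0.0829) or the third combination library (0.0555), at log2 fold changes of -0.30, -0.27, -0.29 and -0.31. HLA-F (-0.29 ± 0.12, adjusted p = 0.19) and TAP1 (-0.17 ± 0.07, adjusted p = 0.124) had lower means with the combination, at 5.13 ± 0.332 against 6.24 ± 0.804 CPM (SD, n = 4) and 22.9 ± 1.46 against 25.8 ± 2.37 CPM, and neither passed the test. TAP2 had a higher mean, 17.9 ± 1.35 against 16.7 ± 1.01 CPM, which did not pass either (0.11 ± 0.08, adjusted p = 0.492). For the abundant members the intervals were narrow: 0.932-fold to 1.02-fold for B2M, 0.950-fold to 1.04-fold for HLA-E, 0.950-fold to 1.06-fold for HLA-C, 0.924-fold to 1.07-fold for HLA-B and 0.911-fold to 1.03-fold for TAPBP. The summed heavy chains differed by -1.68 CPM (exact permutation p = 0.8), and the median log2 fold change of the 9 was -0.03, against -0.0036 over all genes.

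**Figure D3:**
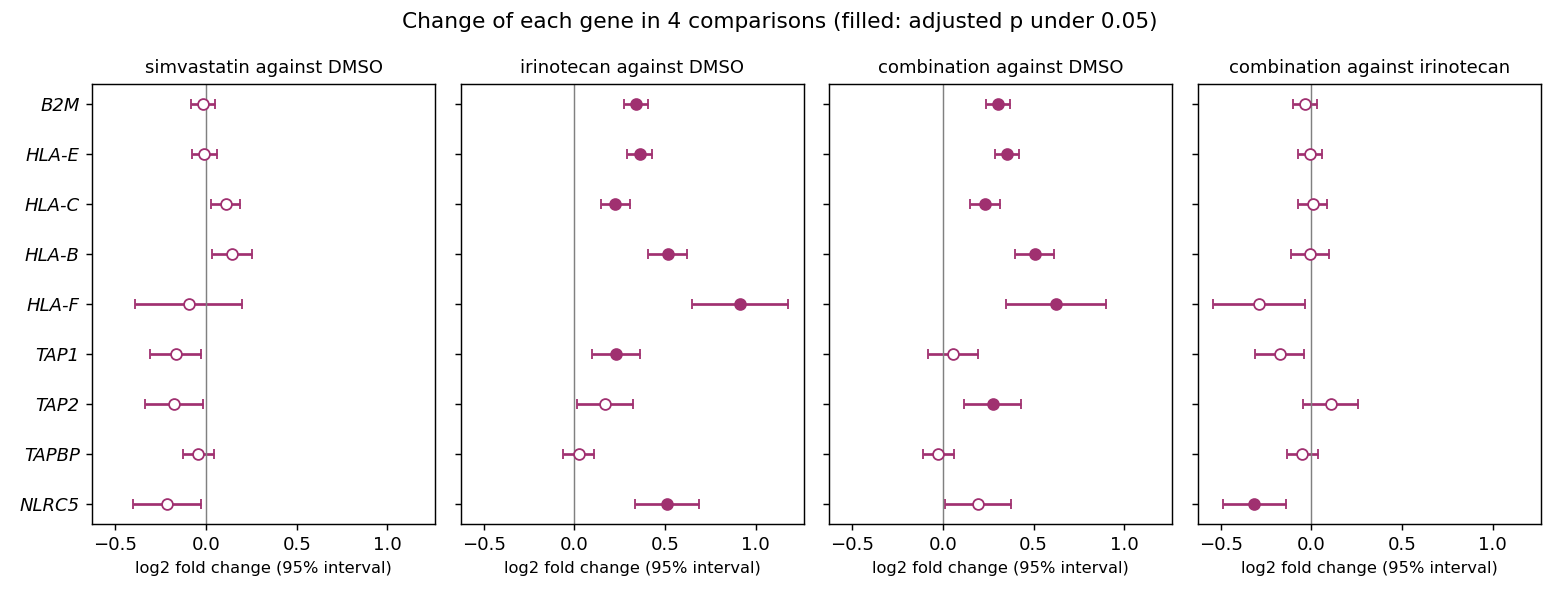
Log2 fold change of each of the 9 genes in 4 comparisons, with 95% intervals, and filled points where the adjusted p was under 0.05. Filled points number 0 for simvastatin, 7 for irinotecan and 6 for the combination against DMSO, and NLRC5 (-0.32) is the 1 filled point of the combination against irinotecan.

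Set against simvastatin alone, both groups with irinotecan were higher in 8 of the 9 genes, all but TAPBP. For the combination 13.9% of all genes tested were called higher and 25.6% in either direction, and for irinotecan against simvastatin 15.4% and 30.3%. The simvastatin libraries are shared by these comparisons. HLA-F showed the largest difference, 1.65-fold with the combination (log2 fold change 0.72 ± 0.14, edgeR adjusted p = 0.00017) and 2.01-fold with irinotecan (1.01 ± 0.13, adjusted p = 4.22e-07). NLRC5 was 1.33-fold higher with the combination (0.41 ± 0.09, adjusted p = 0.000959) and 1.65-fold higher with irinotecan (0.73 ± 0.09, adjusted p = 1.07e-07). TAP2 was 1.36-fold higher with the combination (0.45 ± 0.08, adjusted p = 4.81e-05) and 1.27-fold higher with irinotecan (0.34 ± 0.08, adjusted p = 0.000865). HLA-C differed least of the called genes, by 1.09-fold in each (adjusted p = 0.0194 and 0.0224). Both HLA-C calls were lost without the third simvastatin library (adjusted p = 0.0865 and 0.109). The call for the combination was also lost without combination replicate 1 (0.0960) or 3 (0.0527), and that of TAP1 in the same comparison (0.22 ± 0.07, adjusted p = 0.0156) without the second simvastatin library (0.0646) or the third combination library (0.0664). The summed heavy chains were higher than with simvastatin by 58.6 CPM with the combination and by 60.3 CPM with irinotecan (exact permutation p = 0.0286 and adjusted p = 0.0429 for each).

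The interaction, which measures how far the log2 change with both drugs lies from the 2 single-drug changes added up, was called for none of the 9 genes, where 0.0120% of all genes tested (2 genes) were called. At an unadjusted p under 0.05 there were 2 of the 9 with edgeR and 1 with DESeq2. Over all genes there were 1000 of 16647 with edgeR. With DESeq2, which had no filter on low counts, there were 1103 of 38369, of which it called 4. With edgeR the 2 were TAP2, at 0.28 ± 0.11 (adjusted p = 0.823), and HLA-B, at -0.15 ± 0.08 (adjusted p = 0.828). The value for NLRC5 was -0.10 ± 0.13 (adjusted p = 0.927), and that for HLA-F -0.19 ± 0.19 (adjusted p = 0.907). Intervals for B2M and HLA-E were 0.926-fold to 1.05-fold and 0.938-fold to 1.07-fold of additivity on the log2 scale.

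For the lists that follow, 12.4% of all genes tested were called higher and 11.7% lower with irinotecan against DMSO. Of 16 proteasome and trimming genes, 5 were called higher and 2 lower against DMSO, with a median log2 fold change of 0.05. PSMB8, a catalytic subunit of the interferon-induced immunoproteasome, rose from 27.9 ± 0.562 to 36.1 ± 2.96 CPM (SD, n = 4, log2 fold change 0.37 ± 0.06 SE, edgeR adjusted p = 1.33e-05). PSME2, a subunit of the proteasome activator PA28, rose from 69.5 ± 2.89 to 83.2 ± 2.01 CPM (0.26 ± 0.04, adjusted p = 4.97e-05), and the peptide-trimming aminopeptidase ERAP2 from 39.1 ± 2.17 to 47.5 ± 2.16 CPM (0.28 ± 0.05, adjusted p = 1.13e-04). The remaining 2 higher genes, named after their values were seen, were the immunoproteasome subunits PSMB9 (0.51, adjusted p = 0.0117) and PSMB10 (0.55, adjusted p = 0.0406). The aminopeptidase NPEPPS fell by 0.16 (adjusted p = 0.00113), and PSMB7, a constitutive catalytic subunit also named after its value was seen, fell by 0.13 (adjusted p = 0.0281). Against irinotecan alone, the combination had 1 of the 16 called lower and 0 higher, where 1.50% and 4.45% of all genes were called. The 1 gene was PSMB8, at 31.2 ± 1.52 CPM (-0.21 ± 0.06, adjusted p = 0.0233).

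Of 8 chaperones that fold and load the heavy chain, 4 were called lower with irinotecan, 1 higher and 3 not, with a median of -0.10, where 11.7% of all genes were called lower. PDIA3, the disulfide isomerase of the loading complex, fell from 1236 ± 27.5 to 1075 ± 15.7 CPM (log2 fold change -0.20 ± 0.03, edgeR adjusted p = 1.67e-05), and the lectin chaperones CANX and CALR fell by 0.15 and 0.13 (adjusted p = 0.00223 and 0.00886). TAPBPL, a relative of tapasin that edits peptides, rose from 3.64 ± 0.563 to 4.61 ± 0.358 CPM (0.35 ± 0.13, adjusted p = 0.0457). In the combination against irinotecan alone CANX was the 1 of the 8 called, and it was higher (0.12 ± 0.04, adjusted p = 0.0403). Over all genes 4.45% were called higher there and 1.50% lower.

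Class I-like molecules and stress ligands rose with irinotecan: 7 of 12 tested genes were called higher and 0 lower, with a median log2 fold change of 0.53. MR1, which pairs with B2M and presents vitamin B metabolites, rose from 16.0 ± 1.73 to 25.1 ± 1.36 CPM (0.65 ± 0.07, edgeR adjusted p = 2.93e-08). Of the ligands of the activating receptor NKG2D, those named here by the smallest p rose as well: ULBP2 from 7.62 ± 0.593 to 11.7 ± 0.226 CPM (0.63 ± 0.08, adjusted p = 3.66e-07), MICB from 14.3 ± 0.306 to 20.02 ± 0.409 CPM (0.49 ± 0.07, adjusted p = 9.86e-07) and RAET1L from 1.68 ± 0.253 to 3.73 ± 0.714 CPM (1.14 ± 0.15, adjusted p = 9.7e-07). Not all did: ULBP3 was at 5.68 ± 0.566 and 5.96 ± 0.650 CPM (0.075 ± 0.115, adjusted p = 0.705) and MICA at 47.0 ± 1.28 and 48.3 ± 2.33 CPM (0.038 ± 0.049, adjusted p = 0.645), both named after their values were seen, and ULBP1, with at most 5 counts in any library, was not tested. HLA-G, at 18 to 44 counts per library in these groups, did not pass (0.50 ± 0.26, adjusted p = 0.173). RAET1L was also called higher with simvastatin alone, at 2.90 ± 0.287 CPM (0.78 ± 0.16, adjusted p = 0.00172), and higher with the combination, at 5.22 ± 0.438 CPM, than with irinotecan (0.49 ± 0.13, adjusted p = 0.0209). It was the 1 gene of this list called in each of those comparisons, where 3.89% and 4.45% of all genes were called higher. Against DMSO the combination had 8 of 12 higher and 0 lower, with a median of 0.51. Over all genes 15.1% were called higher and 13.0% lower in that comparison.

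Among 21 transcription factors that act on class I genes, 3 were called higher and 3 lower with irinotecan, with a median of -0.04. These shares lie near those over all genes (12.4% and 11.7%). IRF1, an interferon-induced activator of class I promoters, rose from 10.7 ± 0.388 to 15.0 ± 1.02 CPM (log2 fold change 0.48 ± 0.08, edgeR adjusted p = 2.03e-05) and stood at 14.9 ± 1.66 CPM with the combination (0.47 ± 0.08 against DMSO, adjusted p = 2.92e-05). RFX5, a subunit of the RFX complex to which NLRC5 is recruited, rose by 0.16 ± 0.04 with irinotecan (adjusted p = 0.00677), while NFYA, a subunit of the CCAAT-binding factor NF-Y, fell by 0.30 (adjusted p = 1.92e-05) and USF2 fell by 0.17 (adjusted p = 0.0132). No factor of this list was called in the combination against irinotecan, where 5.94% of all genes were called in either direction.

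Of the interferon ligands, receptors and kinases, 14 of 21 were tested, and 2 were called higher and 1 lower with irinotecan (median 0.09), which is near or below the shares over all genes (12.4% and 11.7%). IFNLR1, the receptor chain for type III interferons, rose by 0.55 ± 0.09 (edgeR adjusted p = 1.96e-05), the negative regulator USP18 rose by 0.34 ± 0.07 (adjusted p = 7.38e-04), and the cytokine signalling inhibitor SOCS3 fell by 0.38 (adjusted p = 1.13e-06). IFNG had 0 counts in all 16 libraries, for which a count of 0 allows up to 3 counts, or 0.0928 to 0.124 CPM per library, and IFNB1 had at most 4 counts in any library. These limits cover counting error only. Of 8 tested sensors of nucleic acid and their partners, 4 rose and 0 fell with irinotecan (median 0.14), with SAMHD1 at 0.48 ± 0.05 (adjusted p = 2.69e-08), IKBKE at 0.52 ± 0.12 (adjusted p = 0.00177), and the RNA sensors DDX58 at 0.29 ± 0.07 (adjusted p = 0.00263) and IFIH1 at 0.17 ± 0.05 (adjusted p = 0.0124). None of these lists had a gene called in the combination against irinotecan, where 5.94% of all genes were called in either direction.

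Interferon-stimulated genes were the longest list, and with irinotecan 24 of 36 tested were called higher and 1 lower, with a median of 0.45. GBP2, a guanylate-binding protein, rose by 0.56 ± 0.06 (edgeR adjusted p = 4.27e-08), and the membrane proteins IFITM3 and IFITM2 by 0.42 ± 0.05 (adjusted p = 1.12e-07) and 1.21 ± 0.15 (adjusted p = 3.2e-07), while GBP5 fell by 0.35 (adjusted p = 4.53e-07). With the combination 14 were higher and 2 lower than with DMSO (median 0.26), where 15.1% and 13.0% of all genes were called. Against irinotecan alone, 3 were lower and 1 higher (median -0.13), where 1.50% and 4.45% of all genes were called. UBA7 (-0.51), MX1 (-0.40) and PARP9 (-0.18) were lower and GBP5 (0.36) higher, of which all but GBP5 were named after their values were seen. UBA7 activates the ubiquitin-like protein ISG15, and MX1 is an antiviral GTPase. Of the class II pathway, 4 of 17 genes had enough counts to be tested. HLA-DRA had 0 counts in every library, and CIITA, their activator and a relative of NLRC5, had at most 15 counts in any library. The protease LGMN rose by 0.27 ± 0.05 with irinotecan (adjusted p = 3.07e-05), and the protease CTSS, at 6 to 30 counts per library, by 1.08 ± 0.34 (adjusted p = 0.0195).

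**Figure D4:**
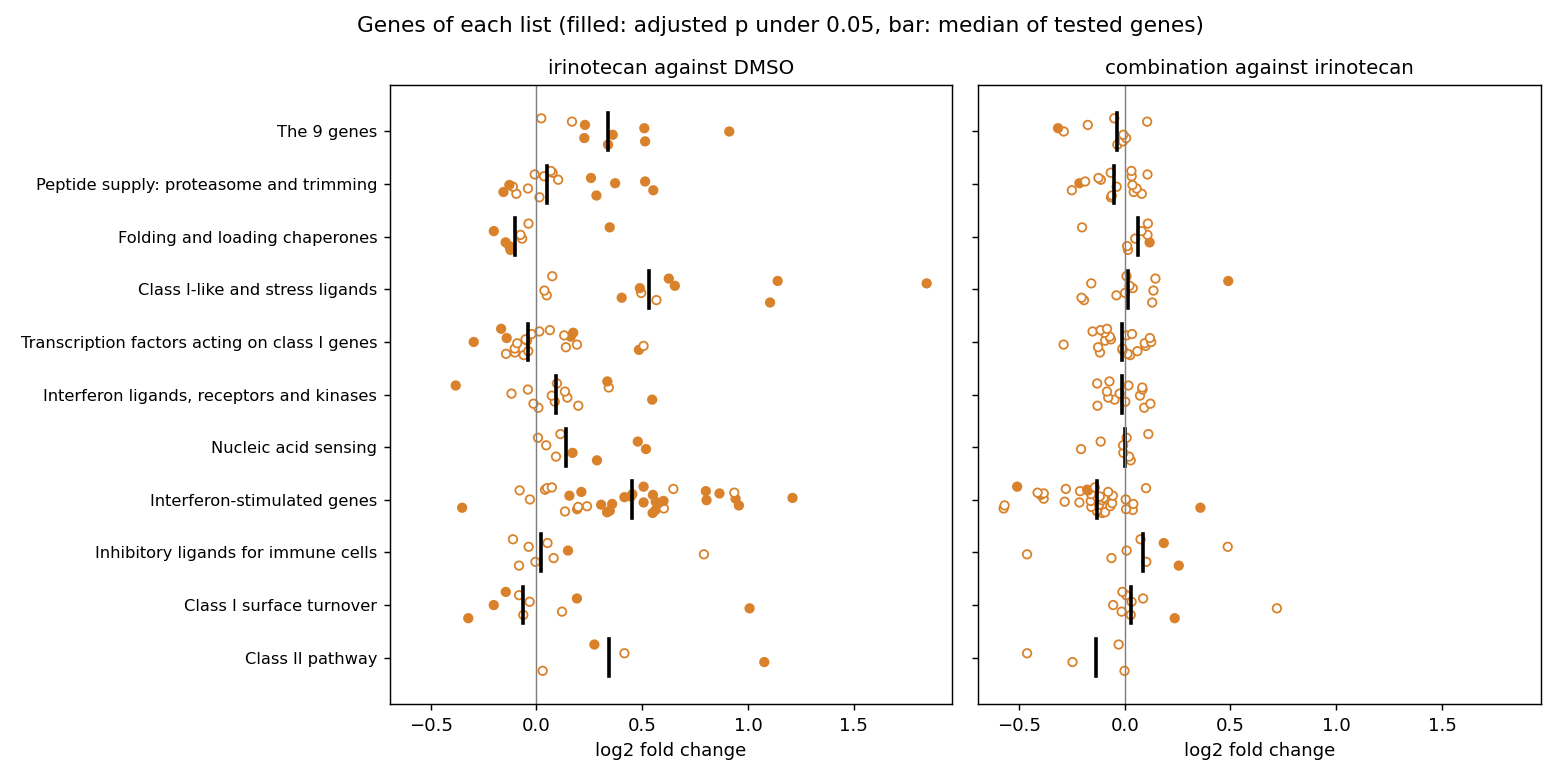
Log2 fold changes of the tested genes of 10 lists and of the 9 class I genes, with irinotecan against DMSO on the left and the combination against irinotecan on the right, filled where the adjusted p was under 0.05, with a bar at each median. On the left the medians of the 9 genes (0.34), the class I-like ligands (0.53) and the interferon-stimulated genes (0.45) lie to the right of 0 and that of the chaperones (-0.10) to the left, and on the right most points are open.

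Genes outside the 9 were ranked by how alike their profile over the 16 libraries was to the mean profile of the 9. Likeness was the root mean square difference of centred log2 CPM values, computed for 12089 genes whose log2 CPM averaged 1 or more, and its median over them was 0.214. The 8 nearest were SCPEP1, a serine carboxypeptidase (0.0355), CDK1, the mitotic kinase (0.0360), GRN, which encodes progranulin (0.0444), IER5 (0.0482), CDCA5, which encodes the cohesin regulator sororin (0.0490), FOXRED2 (0.0503), VAT1 (0.0516) and DNAJC22 (0.0541). Of the 9 genes themselves, HLA-E (0.0445) and B2M (0.0513) were nearest to their own mean, and NLRC5 (0.163), TAPBP (0.176) and HLA-F (0.280) were farthest. The libraries share their groups and their depth, so these values describe the profiles and carry no test.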

How the data were processed

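RNA of 16 libraries in 4 groups of 4 was analysed from 1 deposited table of counts, whole numbers per gene that the authors had not normalised. Per the submitters' processing notes the tools were FastQC, STAR 2.7.1 and DESeq2, with GRCh38. No annotation release, counter or strand setting is given in the sources used here. GENCODE 29 (GRCh38), used for lengths and coordinates, held 57980 of the 58243 gene IDs. The unnumbered library of each group was called replicate 4. It is not stated whether libraries came from separate cultures, so p-values may measure technical spread only. Pairs of libraries within a group differed by more than sampling noise (chi-squared per degree of freedom 2.47 to 13.9).

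Counts were fitted with edgeR 4.0.16 (limma 3.58.1, R 4.3.3): filterByExpr (minimum count 10, minimum total 15) kept 16647 genes, libraries were scaled by TMM, and a robust quasi-likelihood model with 1 term per group was fitted to all 16. Tests were two-sided F tests with Benjamini-Hochberg adjustment over all genes tested, called under 0.05. The model was also run on simulated counts with few changed genes and independent libraries, which does not test the calls made here. SE of a log2 fold change came from its F statistic, and CPM used TMM-scaled totals, except marker sums, which used plain totals. Values summed over genes were compared by exact permutation tests.

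The 9 genes, the marker lists and the pathway lists (211 entries, 205 matched) were chosen with earlier results of these data known. Named were the 9 genes, up to 4 genes per list with the smallest p in irinotecan against DMSO, and the 8 most alike profiles. Alternatives were DESeq2 1.42.0, other scalings, no filter, fewer libraries, a replicate block and a stricter threshold. Promoters came from RefSeq (GRCh38.p14). Figures used Python 3.11.15 and matplotlib 3.10.9.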

Additional observations from a re-analysis of the deposited data

Results flagged for a closer look

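Among 44 sets of 4 libraries checked for a library far from the other members of its group, 2 stood out by Dixon's criterion for 4 values, and chance alone flags about 1 in 20. HLA-C in the third simvastatin library was at 90.7 CPM, against 98.7 to 100.1 CPM in the other simvastatin libraries, and the call of HLA-C against DMSO turned on it. HLA-F in the third DMSO library was at 4.54 CPM, against 2.81 to 3.09 CPM in the other DMSO libraries. Without that library the log2 fold change of HLA-F with irinotecan was 1.09 in place of 0.91, and it passed the test either way.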

How the results depend on the processing

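Over 1566 recomputed values of the 9 genes, 1538 kept their side of the threshold, 19 lost the call and 9 gained it. The sign changed in 34, all of them uncalled before and after and none larger than 0.0806 (HLA-F with simvastatin without DMSO replicate 3), and no called value changed sign. With library sizes alone, TAP2 with irinotecan (0.24, adjusted p = 0.0157) and NLRC5 with the combination (0.25, adjusted p = 0.0330) against DMSO, and TAPBP in irinotecan against simvastatin (0.13, adjusted p = 0.0135), were called. This scaling moved the median of all genes by at most 0.0751. HLA-C in the combination against simvastatin lost its call with no filter on low counts (adjusted p = 0.0668).

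Genes called in the interaction numbered 4 with DESeq2, 14 with no filter and 1 in the 12 numbered libraries, in place of 2. In those 12 libraries simvastatin against DMSO had 513 genes called in place of 999, TAP1 in the combination against simvastatin had an adjusted p of 0.0519, and the combination against irinotecan had 0 of the 9 genes called (NLRC5 adjusted p = 0.0589). At an adjusted p under 0.01 genes called fell to 558 for simvastatin, 2587 for irinotecan (from 4015) and 3032 for the combination (from 4677) against DMSO, 529 (from 989) for the combination against irinotecan, with 0 of the 9, 2681 (from 4259) for the combination against simvastatin, and 0 for the interaction. The cause was not tested.

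Leaving out 1 library at a time, genes called ranged from 664 to 1224 for simvastatin, 3393 to 4188 for irinotecan and 3998 to 4828 for the combination against DMSO, 674 to 1113 for the combination against irinotecan, 3479 to 4371 and 4438 to 5135 for the combination and irinotecan against simvastatin, and 0 to 9 for the interaction. In the same order, 0 to 2, 6 to 7, 6 to 7, 0 to 1, 6 to 8, 7 to 8 and 0 of the 9 were called. The lowest count for simvastatin came without simvastatin replicate 4. Summed heavy chain differences from DMSO were 8.86 to 15.5, 69.2 to 74.8 and 66.3 to 74.3 CPM for simvastatin, irinotecan and the combination.

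Same-numbered libraries were weakly alike: of 18 same-numbered pairs 2 had a correlation of deviations over 0.1 (range -0.0795 to 0.162). Their median correlation was 0.0559, against -0.0135 in 72 pairs with different numbers (replicate 4 included). Of 12 numbered libraries, 10 correlated best with their own number. Whether the numbers mark a shared batch was not tested, and the main model held no replicate block. With a replicate block on the 12 numbered libraries, the combination against irinotecan had 2016 genes and 3 of the 9 called (HLA-F -0.41, adjusted p = 0.0268, and TAP1 -0.21, adjusted p = 0.0268, beside NLRC5), and the interaction 190 genes and 0 of the 9. With a block on all 16 these were 1586 and 6 genes. HLA-F, with 70 to 221 counts per library, is the member most limited by depth.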

Other observations

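Of 8 tested ligands that inhibit immune cells, simvastatin had 2 called higher than DMSO, irinotecan 1 and the combination 5, with 0 called lower in each, where 3.89%, 12.4% and 15.1% of all genes were called higher. The count for irinotecan is at the level of all genes. The difference between these counts was not tested. CD274, which encodes PD-L1, had 24.6 ± 0.546 CPM (SD, n = 4) in the DMSO libraries, 28.6 ± 1.36 in the simvastatin libraries, 23.3 ± 1.31 in the irinotecan libraries and 27.7 ± 1.07 in the combination libraries. It was higher with simvastatin than with DMSO (log2 fold change 0.22 ± 0.05, edgeR adjusted p = 0.0118) and higher with the combination than with irinotecan (0.26 ± 0.05, adjusted p = 0.00278). PVR, a ligand of TIGIT named after its values were seen, was higher in the same comparisons (0.19 ± 0.05, adjusted p = 0.0095, and 0.18 ± 0.05, adjusted p = 0.0098). NECTIN2, a relative of PVR, was higher with irinotecan than with DMSO (0.15 ± 0.04, adjusted p = 0.00975).

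Of 9 genes that act on class I molecules at or on the way to the surface, 2 were called higher and 3 lower with irinotecan, where 12.4% and 11.7% of all genes were called. B3GNT5, a glycosyltransferase of glycosphingolipid synthesis, was at 49.3 ± 2.21 CPM with DMSO and 39.5 ± 3.43 with irinotecan (-0.32 ± 0.06, edgeR adjusted p = 4.09e-05), and was higher again with the combination, at 46.4 ± 1.67 (0.24 ± 0.06 against irinotecan, adjusted p = 0.00666). Of the ubiquitin ligases, those named here by the smallest p, MARCH9 and WWP2, fell by 0.20 (adjusted p = 0.0121) and 0.14 (adjusted p = 0.0125). The ligase MARCH4, with at most 31 counts in any library, was not among the genes so named. SUSD6, a membrane protein that works with WWP2, rose by 0.19 ± 0.05 (adjusted p = 0.00394). Log2 fold changes of the 9 ran from -0.32 to 1.01, so the largest change was a rise in a gene not named by this rule.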
